A study of Danio rerio with 16 samples.

Results

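The genes described are 2 enolases (eno1a and eno1b), an aldolase (aldoca), a lactate dehydrogenase subunit (ldhbb) and a subunit of cytochrome c oxidase (cox4i2), measured in the heads of zebrafish larvae after knockdown of deiodinases. Their probes were chosen from the authors' deposited lists of changed probes, as those whose RefSeq accession belonged to 1 of the 5 genes, and each was then followed through all comparisons. This gave 11 probes of the 20080 in the table and 5 of the 333 named genes in the lists. The lists were made on the same comparisons that are described below, so the values of these 5 genes are given as a description, without a test.

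Glycolysis splits glucose into pyruvate in the cytosol and yields ATP and NADH. Aldolase cleaves fructose 1,6-bisphosphate into triose phosphates, enolase removes water from 2-phosphoglycerate to form phosphoenolpyruvate, and lactate dehydrogenase interconverts pyruvate and lactate. Cytochrome c oxidase is the last complex of the mitochondrial respiratory chain, which oxidises what glycolysis and the citric acid cycle deliver. Brain and retina depend heavily on glucose, and in vertebrates photoreceptors are known for high glycolytic flux even when oxygen is at hand.

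All larvae were of the wild-type WIK strain and were collected at 72 hours post fertilization (hpf). D1D2MO larvae carried morpholinos against deiodinases 1 and 2 together, D3MO larvae a morpholino against deiodinase 3 (dio3b), and SCMO larvae the standard control morpholino, so that every group had been injected. The first pair of enzymes produces the active thyroid hormone T3 from T4, and deiodinase 3 inactivates both hormones. There were 4 pools per group, each of 20 heads, on 16 two-colour arrays. D1D2MO met SCMO on 6 arrays, D3MO met SCMO on 6 and D3MO met D1D2MO on 4, and dyes were balanced within each kind. Morpholino knockdown is transient and acts on translation, so the level of a deiodinase mRNA would not check it. A head pool holds brain, eye, jaw and other tissues, and in such pools fewer cells of a type and less RNA per cell cannot be told apart.

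Values of single pools and arrays were not analysed here. Each value below is a log2 fold change from the authors' deposited table with its standard error (SE), negative where the condition named first was lower. The labels do not tie pools to arrays, so the SE may leave out part of the variation among pools. The SEs of the 11 probes ran from 0.042 to 0.115 against SCMO, beside a median of 0.055 over all probes. A probe fell or rose where the adjusted p was under 0.05 and the change over 1.5-fold. Probes of a gene are numbered from the brightest, and intensities of different probes are not levels that can be ranked.

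All 11 probes were lower in D3MO heads than in SCMO heads, by a median of -0.72 beside -0.00 over all probes. In D1D2MO against SCMO all 11 were lower as well, with a median of -0.50 beside 0.00 over all probes, and in D3MO against D1D2MO the median was -0.28 beside -0.01. The share of all probes that fell in D3MO against SCMO was 1.99%, and all 11 member probes were among them because that list held each of them. In D1D2MO against SCMO 0.652% of all probes fell, among the members only that of eno1b. In D3MO against D1D2MO 0.782% fell, among the members only the brightest ldhbb probe. Both comparisons with SCMO share the SCMO pools, so their values stand side by side here and are not independent of each other.

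**Figure D1:**
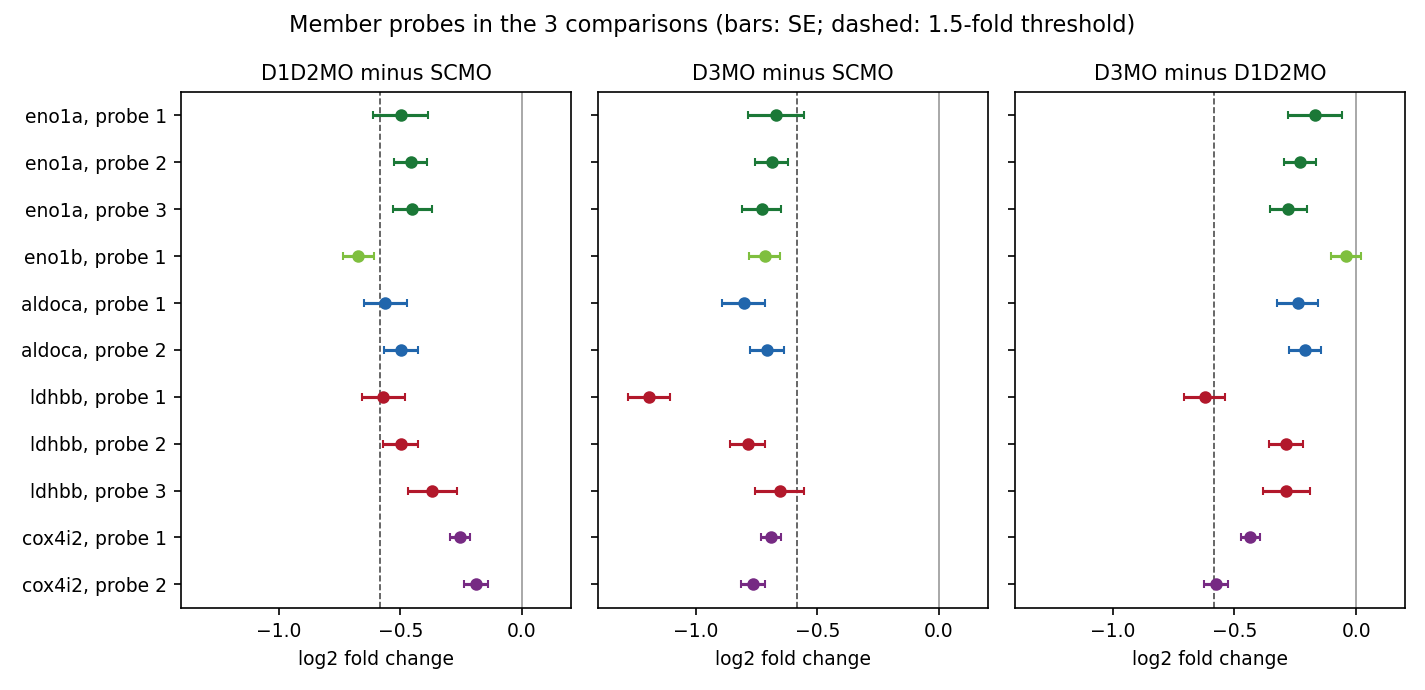
Log2 fold change (x axis) of the 11 probes of eno1a, eno1b, aldoca, ldhbb and cox4i2 (rows) in D1D2MO minus SCMO, D3MO minus SCMO and D3MO minus D1D2MO. Points are fitted values, bars are 1 SE and the dashed line is the 1.5-fold threshold. All 33 points lie below 0, and the brightest ldhbb probe lies farthest below it, at -1.19 in D3MO minus SCMO.

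The plot of the members by comparison shows the 3 orders at once. In D3MO minus SCMO 10 of the 11 probes lay close together, between -0.80 and -0.66, with the brightest ldhbb probe apart from them. In D1D2MO minus SCMO the probes spread between -0.67 and -0.19, with eno1b the lowest and cox4i2 the highest. The gap between the knockdowns, D3MO minus D1D2MO, was therefore smallest in eno1b and large in cox4i2 and in the brightest ldhbb probe.

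Enolase 1a (eno1a, NM_212722) and enolase 1b (eno1b, NM_200695) are the zebrafish genes of alpha-enolase, the form that most tissues use. The 3 eno1a probes had average log2 intensities of 9.45, 8.72 and 8.54. In D3MO minus SCMO they stood at -0.67 (SE 0.115), -0.69 (SE 0.068) and -0.73 (SE 0.080), which is 62.9%, 62.1% and 60.4% of the SCMO signal. In D1D2MO minus SCMO they stood at -0.50 (SE 0.115), -0.46 (SE 0.068) and -0.45 (SE 0.080), or 70.7%, 72.9% and 73.2% of it. The 3 probes differed among themselves by 0.06 in the first comparison and 0.05 in the second, less than the SE of any of them. Between the knockdowns the eno1a probes were at -0.17 (SE 0.111), -0.23 (SE 0.065) and -0.28 (SE 0.077) in D3MO minus D1D2MO.

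The single eno1b probe (average log2 intensity 8.51) gave nearly the same value in both knockdowns. It stood at -0.67 (SE 0.064) in D1D2MO minus SCMO and at -0.72 (SE 0.064) in D3MO minus SCMO. That is 62.7% of the SCMO signal in D1D2MO heads and 60.9% in D3MO heads, and D3MO minus D1D2MO was -0.04 (SE 0.062), within 1 SE of 0. The probes of the paralogue eno1a lay near eno1b in D3MO minus SCMO. In D1D2MO minus SCMO each of the 3 lay closer to 0 than eno1b, differences between probes that were not tested.

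Aldolase C (aldoca, NM_001029952) is the brain form of aldolase, known in the cerebellum as the Purkinje cell antigen zebrin II. Its 2 probes were dim, with average log2 intensities of 6.98 and 6.93, and only 1.28% and 0.96% of the 625 listed probes were dimmer. They were at -0.80 (SE 0.088) and -0.71 (SE 0.069) in D3MO minus SCMO, which is 57.3% and 61.3% of the SCMO signal. The D1D2MO minus SCMO values were -0.56 (SE 0.088) and -0.50 (SE 0.069), or 67.7% and 70.8% of it. D3MO minus D1D2MO was -0.24 (SE 0.085) and -0.21 (SE 0.066). A further aldoca probe is named only in the study's supplementary probe list and was not counted as a member. Its values of -0.47 (SE 0.055) in D1D2MO minus SCMO and -0.70 (SE 0.055) in D3MO minus SCMO lay beside those of the other 2.

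Lactate dehydrogenase B (ldhbb, NM_001002474) encodes the heart-type subunit, which in mammals favours the oxidation of lactate to pyruvate. This was the gene whose probes differed most. The brightest probe (average log2 intensity 9.26) stood at -1.19 (SE 0.088) in D3MO minus SCMO, or 43.8% of the SCMO signal, and the dimmer probes (7.49 and 7.27) at -0.79 (SE 0.073) and -0.66 (SE 0.101), or 58.0% and 63.5%. All 3 carry the same accession, and the range between them was 0.54 in D3MO minus SCMO against 0.20 in D1D2MO minus SCMO. In D1D2MO minus SCMO they stood at -0.57 (SE 0.088), -0.50 (SE 0.073) and -0.37 (SE 0.101), brightest first. D3MO minus D1D2MO was -0.62 (SE 0.085), -0.29 (SE 0.071) and -0.29 (SE 0.097), so the dimmer pair gave the same gap and the brightest probe a larger one.

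The oxidase subunit gene cox4i2 (NM_200803) encodes the second isoform of subunit 4, which in mammals is expressed mainly in lung and rises at low oxygen. Its 2 probes (average log2 intensities 9.23 and 8.82) had the smallest SEs of all members. In D3MO minus SCMO they stood at -0.69 (SE 0.042) and -0.76 (SE 0.049), or 62.0% and 58.9% of the SCMO signal, within the range of the glycolytic genes. In D1D2MO minus SCMO they were at -0.26 (SE 0.042) and -0.19 (SE 0.049), or 83.7% and 87.8%, closer to 0 than every probe of the other 4 genes. D3MO minus D1D2MO was -0.43 (SE 0.040) and -0.58 (SE 0.048).

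The values next to the fold threshold came from the same genes. In D1D2MO minus SCMO eno1b lay just inside at -0.67 (SE 0.064) and the brightest ldhbb probe just outside at -0.57 (SE 0.088). In D3MO minus D1D2MO the brightest ldhbb probe lay just inside at -0.62 (SE 0.085) and the dimmer cox4i2 probe just outside at -0.58 (SE 0.048). In D3MO minus SCMO the dimmest ldhbb probe was the nearest inside, at -0.66 (SE 0.101), and 0 member probes lay outside. By the adjusted p alone, 9 of the 11 probes were lower in D1D2MO than in SCMO, 11 in D3MO than in SCMO and 6 in D3MO than in D1D2MO. The shares over all probes by the same criterion were 6.53%, 19.7% and 11.9%, and nothing is read from the members' counts, since these comparisons chose them.

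**Figure D2:**
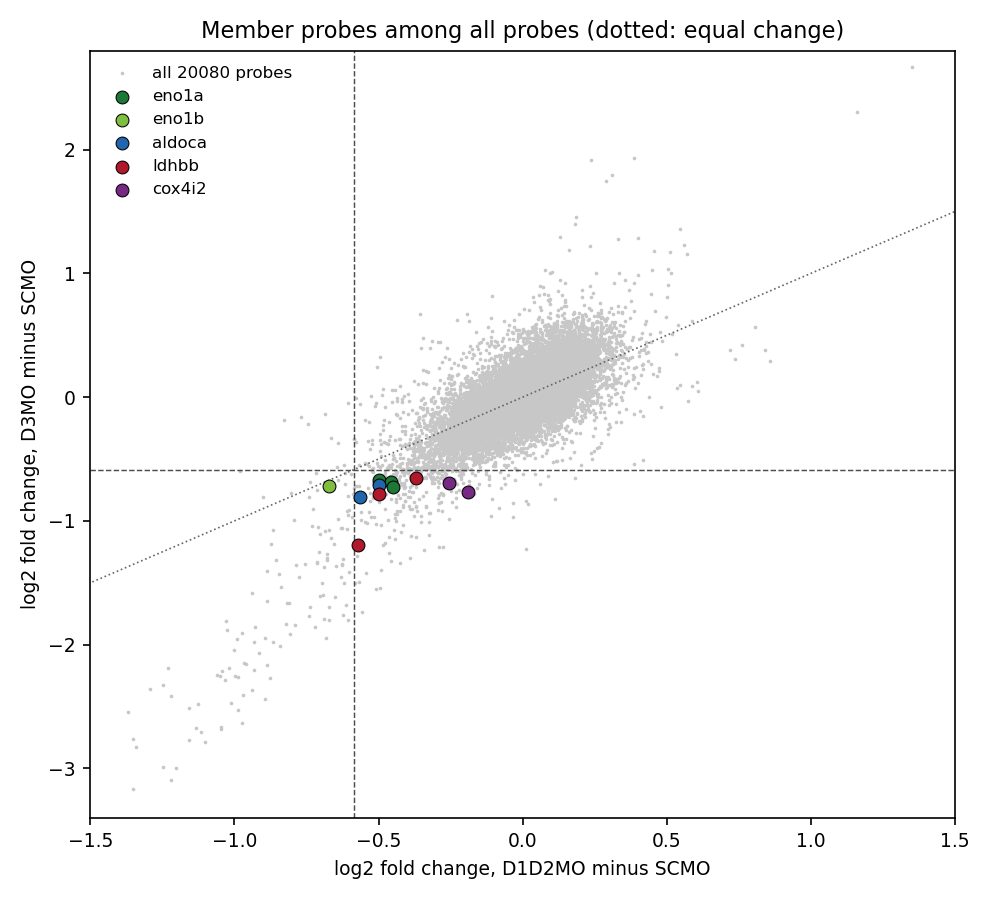
Log2 fold change of each of the 20080 probes in D1D2MO minus SCMO (x axis) and D3MO minus SCMO (y axis), in grey, with the 11 member probes in colour by gene. Dashed lines are the 1.5-fold threshold and the dotted line marks equal change. The eno1b point (-0.67 and -0.72) lies next to the dotted line, and the cox4i2 points (-0.26 and -0.69, -0.19 and -0.76) lie farther below it.

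The plot of all probes places the members at the edge of the main cloud. Their choice fixed this in D3MO minus SCMO, where each was listed for a change over 1.5-fold. Of all probes, 90% lay between -0.25 and 0.20 in D1D2MO minus SCMO and between -0.39 and 0.38 in D3MO minus SCMO. Outside the members, 189 listed probes fell within the members' own range in D3MO minus SCMO, from -1.19 to -0.66, and their median in D1D2MO minus SCMO was -0.41. Of these 189 probes, 6.88% were lower than eno1b in D1D2MO minus SCMO, and 82.5% and 89.9% were lower than the brighter and dimmer cox4i2 probes. For the eno1a and aldoca probes the share ran from 17.5% to 36.5%, and for the ldhbb probes from 16.9% to 64.0%.

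The other enzymes of glycolysis were taken from a list of 35 genes, of which 19 had a named probe and 16 had none in the sources used here. Names came from lists of probes that changed in head, abdomen or tail, so the named genes are not a random draw of the pathway. In the gene counts here and below, a gene passed if any of its probes did, while shares of all probes count single probes. Of the 15 named genes that are not members, 4 fell in D3MO against SCMO (eno2, aldocb, tpi1a and gapdhs), beside 1.99% of all probes. Only these 4 were in the lists of changed head probes, so no other gene of the 15 could count as fallen. By the same criterion 0 rose. By the adjusted p alone, 10 of the 15 were lower in D3MO than in SCMO and 1 was higher, beside 19.7% and 19.3% of all probes. Their median was -0.32 in D3MO minus SCMO and -0.26 in D1D2MO minus SCMO. In D1D2MO minus SCMO 0 of the 15 fell, beside 0.652% of all probes. By the adjusted p alone 7 of the 15 were lower there and 0 higher, beside 6.53% and 4.09% of all probes. In D3MO minus D1D2MO the median of the 15 was -0.03. By the adjusted p alone 4 were lower and 1 higher in that comparison, beside 11.9% and 12.4% of all probes.

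**Figure D3:**
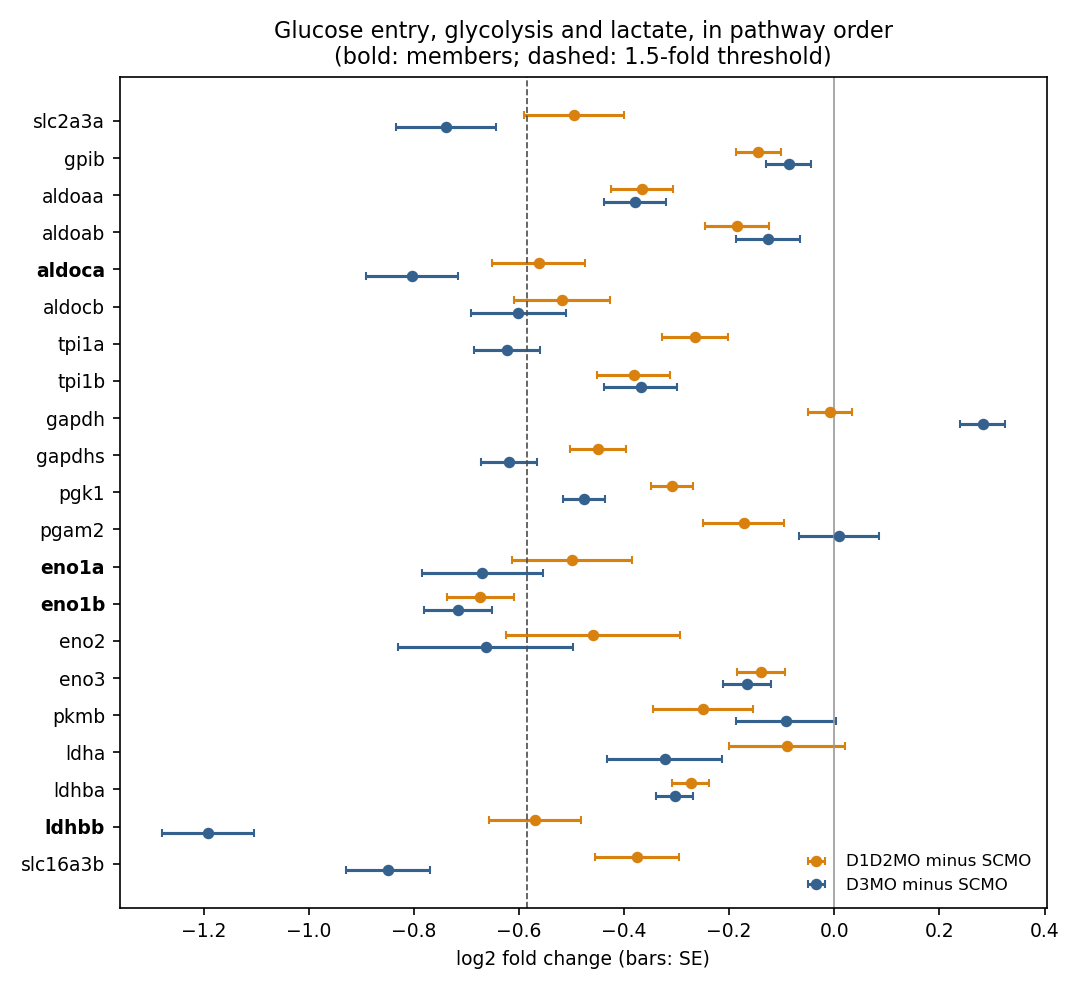
Log2 fold change (x axis, bars 1 SE) in D1D2MO minus SCMO and D3MO minus SCMO for named genes of glucose entry, glycolysis and lactate handling, in the order of the pathway from top to bottom. One probe is plotted per gene, the brightest listed probe or else the first named one, and members are in bold. At the enolase step eno1a, eno1b and eno2 lie between -0.72 and -0.66 in D3MO minus SCMO, and eno3 lies at -0.17.

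The plot in pathway order shows steps at which one gene fell and a paralogue changed less than 1.5-fold. The paralogues eno3, aldoaa, aldoab, tpi1b, gapdh, ldha and ldhba lay outside the lists of changed head probes, so they could not count as fallen. By the adjusted p alone eno3, aldoaa, tpi1b, ldha and ldhba were also lower in D3MO than in SCMO, aldoab was not, and gapdh was higher. At the enolase step, the neuronal enolase eno2 stood at -0.66 (SE 0.166, adjusted p 0.0154) in D3MO minus SCMO, with the widest error of the enolases. It stood at -0.46 (SE 0.166, adjusted p 0.125) in D1D2MO minus SCMO. The muscle enolase eno3 stood at -0.17 (SE 0.046, adjusted p 0.0222) in D3MO minus SCMO and at -0.14 (SE 0.046, adjusted p 0.0977) in D1D2MO minus SCMO. The brightest eno1a probe was 0.50 and eno1b 0.55 below eno3 in D3MO minus SCMO, differences between probes that were not tested.

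At the aldolase step, the paralogue aldocb stood at -0.60 (SE 0.091, adjusted p 0.00167) in D3MO minus SCMO and at -0.52 (SE 0.091, adjusted p 0.0131) in D1D2MO minus SCMO. Of the aldolase A genes, the form of muscle and red cells in mammals, aldoaa stood at -0.38 (SE 0.059) in D3MO minus SCMO and -0.37 (SE 0.059) in D1D2MO minus SCMO. For aldoab these values were -0.13 (SE 0.061) and -0.18 (SE 0.061). Both aldolase C genes thus lay lower than aldoaa and aldoab in both comparisons.

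At the lactate dehydrogenase step, the B paralogue ldhba stood at -0.30 (SE 0.036, adjusted p 0.000535) in D3MO minus SCMO and -0.27 (SE 0.036, adjusted p 0.00425) in D1D2MO minus SCMO. The brightest ldhbb probe was 0.89 lower than ldhba in D3MO minus SCMO and 0.30 lower in D1D2MO minus SCMO. The dimmer ldhbb probes, at -0.79 and -0.66 in D3MO minus SCMO, lay nearer to ldhba. These differences between probes were not tested. The A subunit gene ldha, the muscle form, had probes at -0.32 (SE 0.110) and -0.30 (SE 0.051) in D3MO minus SCMO. The same probes were at -0.09 (SE 0.110) and -0.05 (SE 0.051) in D1D2MO minus SCMO.

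Between these steps, the triose phosphate isomerase tpi1a stood at -0.62 (SE 0.062) in D3MO minus SCMO and -0.26 (SE 0.062) in D1D2MO minus SCMO, while its paralogue tpi1b was at -0.37 (SE 0.069) and -0.38 (SE 0.069). Of the genes of glyceraldehyde-3-phosphate dehydrogenase, which makes the NADH of glycolysis, gapdhs and gapdh differed in sign in D3MO minus SCMO. The brighter gapdhs probe was at -0.62 (SE 0.054) in D3MO minus SCMO and -0.45 (SE 0.054) in D1D2MO minus SCMO. In contrast, gapdh was at 0.28 (SE 0.042, adjusted p 0.00156) in D3MO minus SCMO, the 1 gene of the list that was higher by the adjusted p alone, and at -0.01 (SE 0.042) in D1D2MO minus SCMO.

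The remaining glycolytic genes changed less than 1.5-fold. Phosphoglycerate kinase pgk1, an ATP-yielding step, was at -0.48 (SE 0.040) in D3MO minus SCMO and -0.31 (SE 0.040) in D1D2MO minus SCMO. Glucose-6-phosphate isomerase gpib, phosphoglycerate mutase pgam2 and pyruvate kinase pkmb stood at -0.09 (SE 0.042), 0.01 (SE 0.076) and -0.09 (SE 0.095) in D3MO minus SCMO. Their values in D1D2MO minus SCMO were -0.14 (SE 0.042), -0.17 (SE 0.076) and -0.25 (SE 0.095), and none of the 3 passed the adjusted p in either comparison.

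Among 22 genes of glucose entry, monocarboxylate transport and glycogen, 3 had a named probe. Of these, 2 fell in D3MO against SCMO (slc2a3a and slc16a3b), beside 1.99% of all probes. Only these 2 were in the lists of changed head probes, so pgm1 could not count as fallen. The glucose transporter gene slc2a3a, the type that serves neurons in mammals, fell in D3MO heads and stood at -0.74 (SE 0.095) in D3MO minus SCMO, against -0.49 (SE 0.095) in D1D2MO minus SCMO. The monocarboxylate transporter slc16a3b, which in mammals exports lactate, stood at -0.85 (SE 0.080) in D3MO minus SCMO and at -0.38 (SE 0.080) in D1D2MO minus SCMO. Phosphoglucomutase pgm1, which links glycogen with glycolysis, was at -0.36 (SE 0.051) in D3MO minus SCMO and -0.25 (SE 0.051) in D1D2MO minus SCMO.

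Of 40 genes of pyruvate entry and the citric acid cycle, 12 had a named probe. Of these, 2 fell in D3MO against SCMO, beside 1.99% of all probes. Only these 2 were in the lists of changed head probes, so no other gene of the 12 could count as fallen. The pyruvate dehydrogenase subunit gene pdha1b, which admits pyruvate to the cycle, stood at -0.94 (SE 0.058) in D3MO minus SCMO and -0.32 (SE 0.058) in D1D2MO minus SCMO. Its D3MO minus D1D2MO value of -0.62 (SE 0.056, adjusted p 0.000491) was of the size of that of the brightest ldhbb probe. The list also counts the cytosolic malate dehydrogenases mdh1ab and mdh1aa, which are not the mitochondrial enzyme of the cycle. Of these mdh1ab had probes at -0.65 (SE 0.085) and -0.73 (SE 0.062) in D3MO minus SCMO, and at -0.43 (SE 0.085) and -0.41 (SE 0.062) in D1D2MO minus SCMO. The mitochondrial mdh2 was at -0.33 (SE 0.086) in D3MO minus SCMO and -0.16 (SE 0.086) in D1D2MO minus SCMO, and did not count as fallen. The median of the 12 genes was -0.13 in D3MO minus SCMO and -0.17 in D1D2MO minus SCMO, and by the adjusted p alone 5 and 6 of them were lower, beside 19.7% and 6.53% of all probes. None of the 12 was higher in either comparison, beside 19.3% and 4.09% of all probes.

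The oxidative phosphorylation list held 27 named genes, and cox4i2 was the only 1 of them that fell in any comparison. The other 26 lay outside the lists of changed head probes, so they could not count as fallen. In D3MO minus SCMO these 26 lay between -0.31 and 0.03, with a median of -0.16. In D1D2MO minus SCMO they lay between -0.27 and -0.06, with a median of -0.17. By the adjusted p alone 11 of the 26 were lower in D3MO than in SCMO and 6 were lower in D1D2MO than in SCMO, beside 19.7% and 6.53% of all probes. None of the 26 was higher in either comparison, beside 19.3% and 4.09% of all probes. The paralogue cox4i1, the subunit 4 isoform of most tissues, stood at -0.20 (SE 0.091, adjusted p 0.116) in D3MO minus SCMO and -0.11 (SE 0.091, adjusted p 0.512) in D1D2MO minus SCMO. The brighter cox4i2 probe was 0.49 lower than cox4i1 in D3MO minus SCMO and 0.15 lower in D1D2MO minus SCMO, and these differences between probes were not tested.

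**Figure D4:**
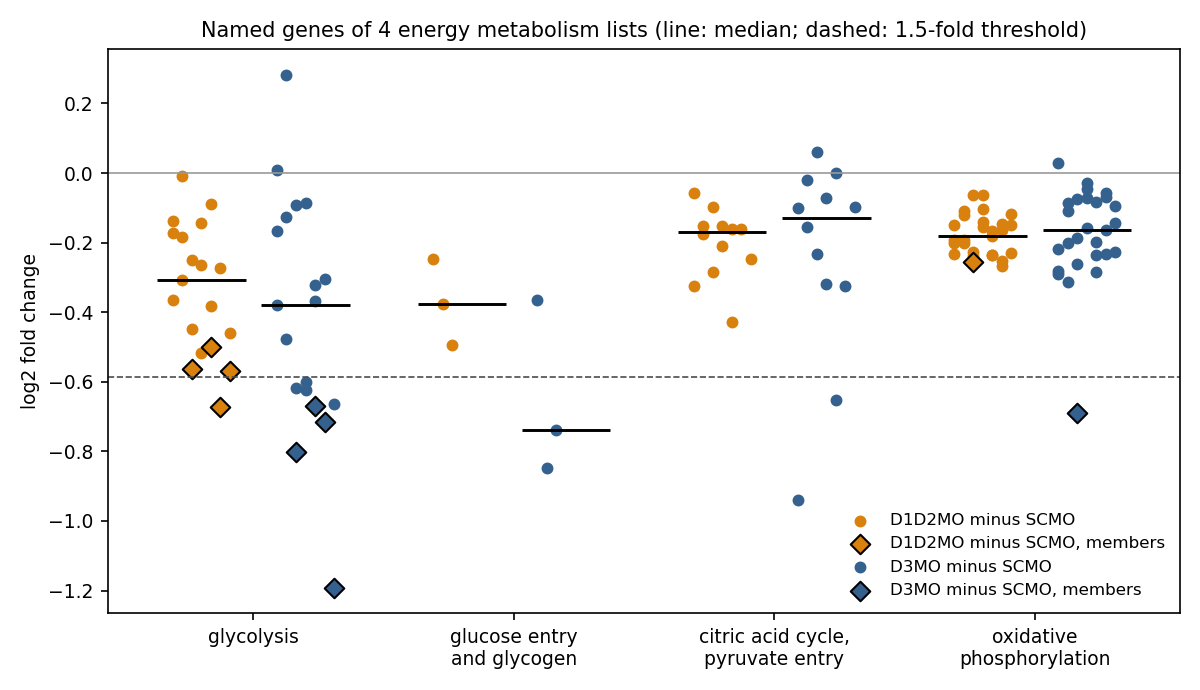
Log2 fold change (y axis) of the named genes of the lists for glycolysis, glucose entry and glycogen, citric acid cycle and pyruvate entry, and oxidative phosphorylation (x axis), in D1D2MO minus SCMO and D3MO minus SCMO. Each point is 1 gene, diamonds are members, lines are medians and the dashed line is the 1.5-fold threshold. In oxidative phosphorylation the cox4i2 diamond at -0.69 in D3MO minus SCMO stands apart from the other genes, which lie between -0.31 and 0.03. Of these genes only cox4i2 was in the lists of changed head probes, from which the members were chosen.

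As the plot of the lists shows, named genes of all 4 lists were mostly below 0 in both comparisons. Over glycolysis, the citric acid cycle and oxidative phosphorylation together, without the glucose entry list, 58 genes had a name. Of these, 11 genes fell in D3MO against SCMO, 1 in D1D2MO against SCMO and 2 in D3MO against D1D2MO, and 0 rose. The shares of all probes that fell were 1.99%, 0.652% and 0.782%, in the same order. Of the 58 genes only 11 were in the lists of changed head probes, so no other gene could count as fallen or risen. Nothing is read from the gene counts of this paragraph beside these shares. The share of all probes that rose by both thresholds was not counted. Without the 5 members 53 genes remain, of which 6, 0 and 1 fell in these comparisons. The median of the 53 was -0.17 in D3MO minus SCMO and -0.18 in D1D2MO minus SCMO.

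The named genes outside these lists with values most like those of each member were sought among 320 genes, by the distance between their log2 fold changes in the 2 comparisons with SCMO. Nearest to eno1a was the parvalbumin pvalb8, at -0.66 in D3MO minus SCMO and -0.52 in D1D2MO minus SCMO (distance 0.020), then the calcium-binding protein gene cabp1a (distance 0.040). Nearest to eno1b were the ependymin gene epd (distance 0.060) and the vesicle fusion ATPase nsfa (distance 0.093). Nearest to aldoca were the metallothionein mt2, at -0.81 in D3MO minus SCMO and -0.56 in D1D2MO minus SCMO (distance 0.0055), and si:busm1-57f23.1 (distance 0.034). For ldhbb they were tmx3a (distance 0.086) and the retinoid isomerase rpe65a (distance 0.111), and for cox4i2 zgc:154093 (distance 0.014) and laptm4b (distance 0.025). The distances rest on the brightest listed probe of each gene and on comparisons that share SCMO.

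Markers of head cell types were followed in the same arrays. A marker has a name only if its probe was in a list of probes that changed in head, abdomen or tail. The named markers are thus not a random draw of each cell type, and unchanged markers would be missing. As with the other lists, the markers were chosen with earlier results of these data known. The shares of all probes that fell against SCMO were 1.99% in D3MO and 0.652% in D1D2MO. All 10 photoreceptor markers, among them the rod opsin rho and the cone transducin gnat2, fell in both knockdowns. They lay between -3.17 and -1.96 in D3MO minus SCMO (median -2.72) and between -1.35 and -0.88 in D1D2MO minus SCMO (median -1.15), below all 11 member probes in each. Of 7 markers of mature neurons 3 had a name, and these lay between -2.04 and -0.68 in D3MO minus SCMO, with a median of -0.69 and a highest value of -0.29 in D1D2MO minus SCMO. The Purkinje cell and cerebellum markers pvalb7 and pcp4l1, the 2 of 5 with a name, stood at -0.80 (SE 0.065) and -0.65 (SE 0.107) in D3MO minus SCMO. Their values were -0.61 (SE 0.065) and -0.06 (SE 0.107) in D1D2MO minus SCMO.

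Named markers of other cell types went the other way or were mixed. Of the 20080 probes, 569 were listed in D3MO minus SCMO and 144 in D1D2MO minus SCMO, in either direction. All but 1 of each list passed the adjusted p as well. Of all probes, 399 and 131 fell, so the rest of these lists rose. The share of all probes that rose by both thresholds was not counted apart. Of 4 markers of Muller and radial glia 3 had a name. Of these gfap was at 0.65 (SE 0.063), glula at -0.57 (SE 0.035) and rlbp1a at -0.99 (SE 0.067) in D3MO minus SCMO. The D1D2MO minus SCMO values were 0.50 (SE 0.063), -0.64 (SE 0.035) and -0.25 (SE 0.067). The 8 skeletal muscle markers lay between 0.13 and 0.92 in D3MO minus SCMO, where 4 rose, and between -0.38 and 0.76 in D1D2MO minus SCMO, where 1 rose. The 3 named erythrocyte markers of 4 lay between 0.33 and 2.31 in D3MO minus SCMO, where 2 rose, and between -0.09 and 1.16 in D1D2MO minus SCMO, where 1 rose. The heart muscle marker myl7, 1 of 3, was at 0.12 (SE 0.100) in D3MO minus SCMO and rose in D1D2MO minus SCMO, at 0.61 (SE 0.100). The 3 liver and yolk markers had no named probe. The part of these cell types in the values of the enolase, aldolase, lactate dehydrogenase and oxidase genes was not tested.

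**Figure D5:**
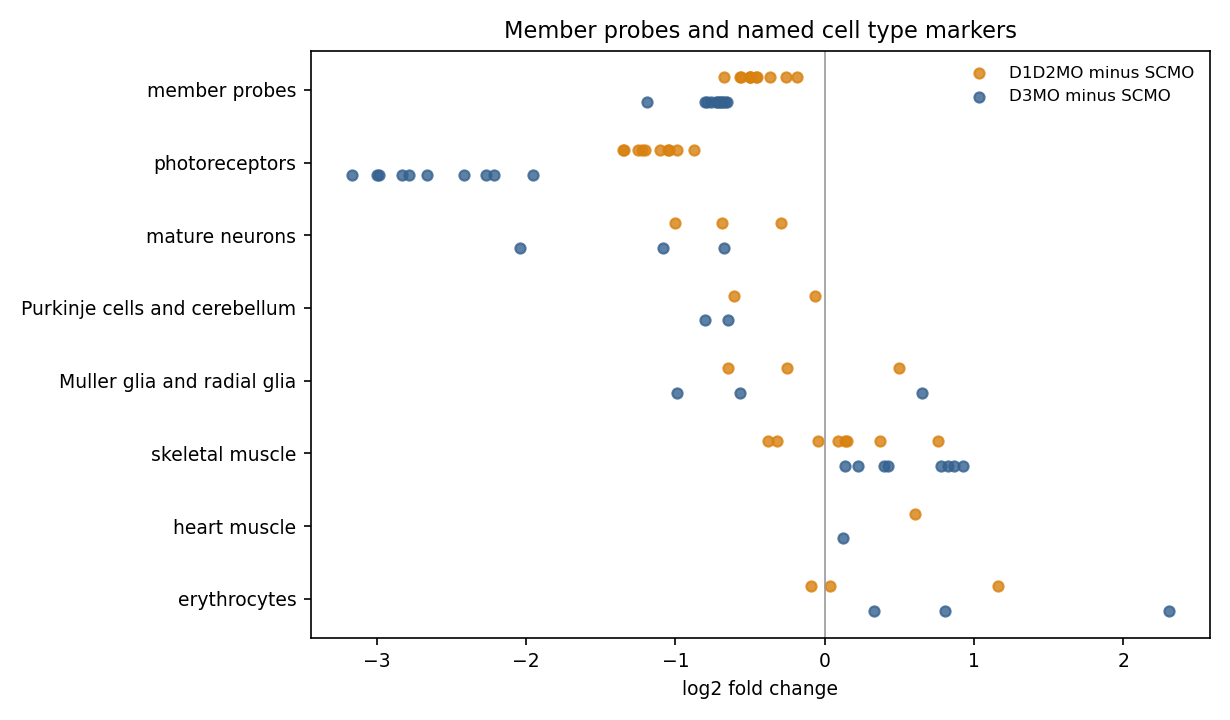
Log2 fold change (x axis) of the 11 member probes and of the named markers of 7 cell types (rows), in D1D2MO minus SCMO and D3MO minus SCMO, 1 point per probe or marker gene. Photoreceptor markers lie between -3.17 and -1.96 in D3MO minus SCMO, farther from 0 than the member probes (-1.19 to -0.66), and skeletal muscle and erythrocyte markers lie above 0 there.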

How the data were processed

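Heads of 72 hpf larvae were profiled on 16 two-colour Agilent 4x44k zebrafish arrays. The authors scanned the arrays, excluded spots that were above background on no array, corrected the background by normal-exponential convolution, normalised dye ratios by loess within each array and fitted linear models in limma (version not given in the sources used here). Their deposited tables hold log2 fold changes and p-values for 20080 probes in 3 comparisons and, for listed probes, average log2 intensity, the moderated t and log-odds scores, and adjusted p-values. Only these tables of comparisons were at hand, and the genes were defined on them, so they were used in place of values per array.

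By a check of the tables, the lists held the probes whose p before adjustment was under 0.05 and whose change exceeded 1.5-fold (144, 569 and 243 probes). The degrees of freedom that turn t into p were 7.79. With them t and the SE of every probe were recovered from its p-value, and p-values were adjusted by Benjamini-Hochberg over all 20080 probes (within 0.404% of the deposited values). The recovery was tested on simulated data. Percentages of the SCMO signal are 2 to the power of the log2 fold change.

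Probe names came from the RefSeq gene table of GRCz12tu, matched by accession (478 of 625 listed probes) or from the study's supplementary probe list, used for names only (998 probes in the table, 547 of them outside the lists). Where both gave a name, 314 of 315 were the same. The text names the 5 genes, the other named glycolysis genes, genes of the other lists past both thresholds with cox4i1, and 2 like genes per member. Other genes, among them those of glucose entry and those that differed between the knockdowns, were chosen after their values were seen. The members, lists and alternatives were chosen with earlier results of these data known. Some genes of the lists are not reported here and were left out of their counts. Promoter motifs, protein and probe sequences were not analysed here. Alternatives were other thresholds, centring, a filter on dim probes, other probe names and other summaries of probes. Python 3.11.15, numpy 2.4.6, scipy 1.17.1, pandas 2.3.3 and matplotlib 3.10.9 were used.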

Additional observations from a re-analysis of the deposited data

Results flagged for a closer look

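The difference between the knockdowns themselves, D3MO minus D1D2MO, passed the adjusted p (limma, under 0.05 over all probes) in 18 of the 71 named probes of the 4 energy metabolism lists, and these values are given because the same contrast differed between 2 conditions. Of the 18, 14 were lower and 4 higher in D3MO heads, beside 11.9% lower and 12.4% higher of all probes by the same criterion. With both directions together, the share of the 71 probes that passed was near that of all probes. Taken apart, the lower share was above that of all probes and the higher share below it. Of the 14 lower probes 6 were members, and all names came from lists of changed probes, so nothing is read from this split. For the members these values are a description, since this comparison was among those that chose them. The lower values were -0.62 (SE 0.085) and -0.29 (SE 0.071) in probes 1 and 2 of ldhbb, -0.43 (SE 0.040) and -0.58 (SE 0.048) in probes 1 and 2 of cox4i2, and -0.23 (SE 0.065) and -0.28 (SE 0.077) in probes 2 and 3 of eno1a. The aldoca probe named only in the supplementary list was at -0.23 (SE 0.053).

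Among genes that are not members, pdha1b was at -0.62 (SE 0.056), slc16a3b at -0.47 (SE 0.077), tpi1a at -0.36 (SE 0.060) and the dimmer mdh1ab probe at -0.32 (SE 0.060). The second ldha probe was at -0.24 (SE 0.049), and gapdhs and pgk1 were both at -0.17, with SEs of 0.052 and 0.039. Higher in D3MO than in D1D2MO were gapdh at 0.29 (SE 0.041), the ATP synthase subunit atp5f1b at 0.26 (SE 0.077), the succinate dehydrogenase subunit sdha at 0.16 (SE 0.041) and the mitochondrial pyruvate carrier mpc2b at 0.15 (SE 0.038).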

How the results depend on the processing

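Single arrays were not at hand, so no replicate could be left out, and no paired analysis was possible because the deposited comparisons carry no replicate numbers. With the adjusted p alone, 9 member probes were lower in D1D2MO minus SCMO and 6 in D3MO minus D1D2MO, each against 1 with both thresholds. Genes of glycolysis, the citric acid cycle and oxidative phosphorylation, without the glucose entry list, were counted in the same way. In D1D2MO minus SCMO they numbered 24 (24 lower and 0 higher), against 1. In D3MO minus SCMO they numbered 32 (31 lower and 1 higher), against 11. In D3MO minus D1D2MO they numbered 14 (10 lower and 4 higher), against 2. By the adjusted p alone, 6.53%, 19.7% and 11.9% of all probes were lower and 4.09%, 19.3% and 12.4% higher, in that order. Tested against a 1.5-fold change, 0, 1 and 0 member probes and 0, 2 and 0 genes were called in these comparisons. The shares of all probes in that test were not counted. Nothing is read from these counts, since the members were chosen by a 1.5-fold change in the same comparisons. Without the dimmest 25% of listed probes (average log2 intensity under 7.97), 7 of 11 member probes stayed in D3MO minus SCMO and 1 of 2 genes in D3MO minus D1D2MO, since fewer probes were kept. This filter removed both aldoca member probes (6.98 and 6.93), so that aldoca was left with none, and the dimmer ldhbb probes (7.49 and 7.27). Of 45 gene values under other probe summaries or centring, 38 moved by at most 1 SE, 7 moved by more and 0 changed sign. The 7 were 5 values of ldhbb and 1 each of aldoca and cox4i2. For ldhbb the mean of its 3 probes was -0.88 in D3MO minus SCMO and -0.40 in D3MO minus D1D2MO, against -1.19 and -0.62 for the brightest probe.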
